A study of Saccharomyces cerevisiae with 16 samples.

Results

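The response of the sumoylation mutant *ubc9-6* to heat shock was examined by comparing RNA polymerase II (RNAPII) ChIP-seq peaks from *ubc9-6* yeast shifted to 37 °C for 12 min with peaks from untreated *ubc9-6* yeast grown at 30 °C. The comparison rests on the strain and treatment labels alone, and it takes in 4 peak lists (2 replicates per treatment) of the 8 that were used from the 16 samples of the series. The other 4 lists, 2 from heat-shocked and 2 from untreated wild-type (WT) cells, serve only to set single results beside the same shift in the parent strain. Both strains are haploid *Saccharomyces cerevisiae* of the W303a background, grown in synthetic complete medium to mid-log phase. The *ubc9-6* strain carries the *ubc9-1* allele as tandem copies, marked with *TRP1*, at the *UBC9* locus, has impaired sumoylation, and does not grow at 37 °C. The heat shock in *ubc9-6* is therefore also a shift to the restrictive temperature of the allele, and in these 4 lists the 2 effects cannot be told apart. The replicates are stated to be independent.

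Ubc9 is the only SUMO-conjugating enzyme of budding yeast and attaches the small protein SUMO, encoded by *SMT3*, to lysines of other proteins, among them many transcription factors. When yeast is shifted to a higher temperature, heat shock factor (Hsf1) raises transcription of chaperone genes through heat shock elements, which are inverted repeats built of GAA and TTC. The paired activators Msn2 and Msn4 raise general stress genes through the stress response element AGGGG. At the same time the genes for ribosomal proteins and for the assembly of ribosomes are turned down. RNAPII on a gene reports ongoing transcription, whereas the mRNA level also depends on decay.

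The antibody (8WG16, against the largest RNAPII subunit Rpb1) favors polymerase with a less phosphorylated C-terminal domain, and peaks were called over input chromatin separately for each replicate. Heat-shocked *ubc9-6* lists held 1545 and 1512 peaks that covered 24.5% and 24.6% of the nuclear genome, against 1522 and 1451 peaks and 25.0% and 25.4% in untreated lists. Neither peak number (exact permutation p = 0.667) nor covered length (exact permutation p = 0.333, the smallest that 2 lists against 2 allow, two-sided) separated the treatments by a test that could pass 0.05. The longest peak was 11303 and 11266 bp in heat-shocked lists and 22509 and 21213 bp in untreated lists. Peak lists carry no read counts, so the depth is unknown. *UBC9* was covered over 0.779 of its length in heat shock replicate 1 and had no covered base in the other 3 *ubc9-6* lists, and peaks do not read the mutation, so the locus does not check the strain label.

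Genes were measured in 2 ways. The covered share of an open reading frame (ORF, first to last coding base, sacCer3/R64) is the fraction of it under peaks, and an ORF is called occupied at a share of at least 0.5. A gained ORF was occupied in both heat shock lists and in neither untreated list, and a lost ORF the reverse. The peak rank orders the peaks of 1 list by fold enrichment over input, with rank 1 the strongest, and an ORF takes the rank of the peak that covers most of it. The rank score is the log2 of the number of peaks divided by the rank, so that a heat shock minus untreated difference of +1 means a rank number 2 times smaller after heat shock. Ranks are relative within a list: when some genes move up, others must move down. ORFs under the same peak share its rank, so a gene can take the rank of a stronger neighbor, and near-identical copies cannot be told apart in short reads.

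Of 6002 ORFs, 197 were gained (3.28% of all ORFs) and 239 were lost (3.98%). The gained ORFs were 4.76% of the 4143 that were occupied in neither untreated list, and the lost ORFs were 15.5% of the 1541 that were occupied in both. Another 1208 ORFs were occupied in all 4 lists and entered the rank test (limma, Benjamini-Hochberg adjusted p under 0.05), in which 355 rose (29.4%) and 331 fell (27.4%). These shares are the background for every count of a gene group below. Of the 1208 ORFs, 730 passed 0.05 before adjustment. Rises reached further than falls, with 40 ORFs past a score difference of 3 upward and 13 past it downward. The 1208 ORFs lay under 766 distinct peaks in heat shock replicate 1, so calls of neighboring ORFs are not separate measurements.

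The short promoter sequences that bear on these groups are shown first, because their elements are those known for the genes that respond to heat. Each run is 5′ to 3′ on the coding strand of the gene (RefSeq, R64), with bases around the match in lower case and the match in capitals. The first set shows a heat shock element pair, searched as TTCNNGAA or GAANNTTC, upstream of chaperone genes that rose:
HSP42 (chrIV:806371-806405, + strand): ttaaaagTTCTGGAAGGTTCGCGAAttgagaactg
HSP78 (chrIV:974463-974493, − strand): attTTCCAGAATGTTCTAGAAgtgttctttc
HSP10 (chrXV:370982-371014, − strand): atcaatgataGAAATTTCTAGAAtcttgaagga
HSP82 (chrXVI:98843-98870, − strand): tttcttttttTTCTAGAAcgccgtggaa
In *HSP42* and *HSP78* 3 matches overlap in 1 run. The second set shows the stress response element AGGGG, or its complement CCCCT, upstream of stress and storage carbohydrate genes that rose or were gained:
TSL1 (chrXIII:70383-70473, + strand): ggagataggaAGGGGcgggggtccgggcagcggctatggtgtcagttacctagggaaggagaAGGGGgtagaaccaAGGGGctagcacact
CTT1 (chrVII:654491-654515, + strand): tttatcgtatCCCCTactgctacac
SOL4 (chrVII:985836-985860, + strand): aaaaaatcccCCCCTaagcagcgaa
GAD1 (chrXIII:770628-770652, + strand): caccagaaaaAGGGGatcagtaaag
The third set shows GATGAG, or its complement CTCATC, the core of the PAC element known from promoters of ribosome assembly and RNA polymerase I and III genes, upstream of genes that were lost:
RPC40 (chrXVI:746903-746928, − strand): aaattattgcGATGAGttgaaagaaa
NSR1 (chrVII:807828-807853, − strand): gcaagggcagCTCATCgcaagaacga
GAR1 (chrVIII:283408-283433, − strand): aatttttcgaGATGAGgaaaggaaga
NOP58 (chrXV:898467-898492, − strand): atttttcaacCTCATCgaaaattttc
A match is a stretch of letters and not a measured binding site.

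These motifs were counted on both strands in the window from 250 bases before to 50 bases after each start codon. AGGGG stood in 21.6% of all ORFs' windows, in 46.7% of those of gained ORFs (92 of 197) and in 8.37% of those of lost ORFs (20 of 239). Among the 1208 ORFs of the rank test it stood in 30.1%, with 45.4% of rises (161 of 355) and 18.7% of falls. GATGAG ran the other way for occupancy, with 29.3% of lost ORFs (70 of 239) and 15.2% of gained ORFs against 20.4% of all ORFs. In the rank test it stood in 16.3% of rises and 13.6% of falls, beside 15.9% of all tested ORFs. The single heat shock element pair stood in 27.4% of gained and 19.7% of lost ORFs, beside 22.6% of all, and in 29.0% of rises and 26.0% of falls, beside 24.5% of tested ORFs. Among ORFs whose rank fell by 2 or more it stood in 35.5%, above the 27.5% of those that rose by 3 or more. A run of 3 units (GAANNTTCNNGAA or TTCNNGAANNTTC, which contain the pair, as in *HSP42*) was rarer and stood in 2.54% of gained ORFs, beside 0.783% of all, and in 4.23% of rises and 0.906% of falls, beside 1.82% of tested ORFs. No test was run on these shares.

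**Figure D1:**
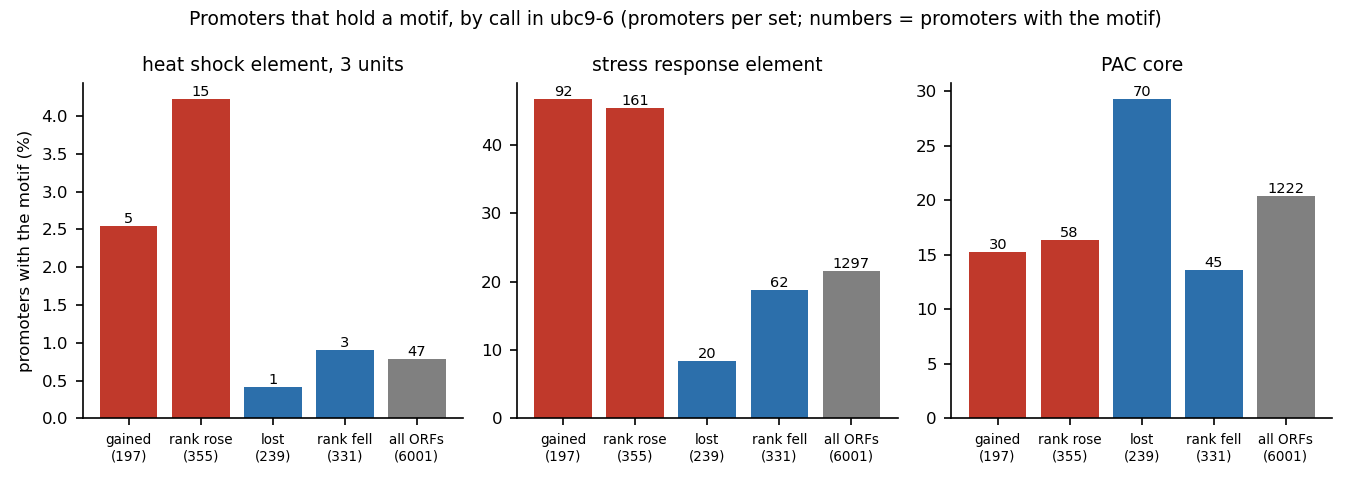
Percent of promoter windows (250 bases before to 50 after the start codon) that hold each motif on either strand, for gained ORFs, ORFs whose rank rose, lost ORFs, ORFs whose rank fell, and all ORFs. AGGGG is at 46.7% and 45.4% in gained ORFs and rises and at 8.37% in lost ORFs, whereas GATGAG is at its highest in lost ORFs, at 29.3%.

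Chaperone genes moved to the top of the lists. Of 28 genes known as targets of Hsf1, 22 of the 23 in the rank test rose and none fell, 3 were gained and none was lost. The median score difference over the 23 was 2.69, beside 0.01 over all 1208 ORFs. Their median rank was 70 and 87 in heat-shocked lists, against 324 and 340 in untreated lists. The only tested member without a call was *SBA1*, an Hsp90 co-chaperone, and *CDC37*, occupied in no list, and *MDJ1*, occupied in 3 of 4, were not tested.

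The cytosolic Hsp70 and Hsp90 genes came out just behind the glycolytic gene *TDH3*, which was rank 1 in all 4 lists. *SSA1* (Hsp70) had ranks 2 and 2 in heat-shocked lists, against 23 and 46 in untreated lists, and it shared its peak with *EFB1*. *SSA2* had ranks 3 and 4 against 32 and 63, and *HSC82* (Hsp90) had ranks 4 and 5 against 33 and 65. These genes were thus already strong in untreated cells, and *SSA1* and *SSA2*, like *HSC82* and *HSP82*, are near-identical copies. The rises were 4.06 ± 0.49 for *SSA1*, 3.74 ± 0.47 for *SSA2* and 3.41 ± 0.46 for *HSC82* on the log2 rank scale (SE, n = 2 per treatment, limma adjusted p = 0.00109, 0.00135 and 0.00169).

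Chaperones that act on aggregates climbed from further down. *HSP42*, a small heat shock protein that gathers misfolded proteins, had ranks 11 and 10 in heat-shocked lists, against 454 and 512 in untreated lists (score difference 5.56 ± 0.22, SE, limma adjusted p = 0.000176). The peak itself changed in extent: it covered 1 ORF in each heat-shocked list and 4 ORFs in each untreated list, and *SUP35*, the translation release factor next to *HSP42*, was lost. The other small heat shock protein, *HSP26*, had ranks 23 and 11 against 196 and 205. *HSP104*, the cytosolic disaggregase, had ranks 31 and 33 against 324 and 356, and *HSP78*, its mitochondrial counterpart, had ranks 35 and 41 against 749 and 1101. In all of these genes both heat-shocked lists lay above both untreated lists by several times in rank number. That order of the lists, by any margin, held for all 355 rises and is not particular to them.

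Other cochaperones and mitochondrial chaperones rose as well, and those given here rose by less than the genes above. *STI1*, which links Hsp70 and Hsp90, had ranks 73 and 87 in heat-shocked lists, against 425 and 586 in untreated lists, and the J-protein *YDJ1* had ranks 70 and 96 against 242 and 336. The Hsp110 gene *SSE1* had ranks 104 and 138 against 466 and 629. In mitochondria, the Hsp70 gene *SSC1* had ranks 25 and 27 against 110 and 160, and the chaperonin *HSP60* and its lid *HSP10* had ranks 123 and 119 against 293 and 340, and 97 and 115 against 233 and 247. *AHA1*, which stimulates the Hsp90 ATPase, moved least among those given here, with a score difference of 0.65 ± 0.14 (SE, limma adjusted p = 0.0113).

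The 3 gained chaperone genes were inducible Hsp70 genes and a J-protein. *SSA3* was covered in full in both heat-shocked lists (ranks 462 and 393) and had no covered base in untreated lists. *SSA4* was likewise covered in full against no covered base, and its peaks (ranks 67 and 60) reached back over the neighboring *RPS8B*. The untreated peaks over *RPS8B* ended 394 and 413 bases before the *SSA4* start codon, whereas the heat-shocked peaks ran on to 3379 and 3411 bases past it. *APJ1*, a J-protein, was covered in full at ranks 309 and 424 in heat-shocked lists, against shares of 0.011 and 0 in untreated lists.

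**Figure D2:**
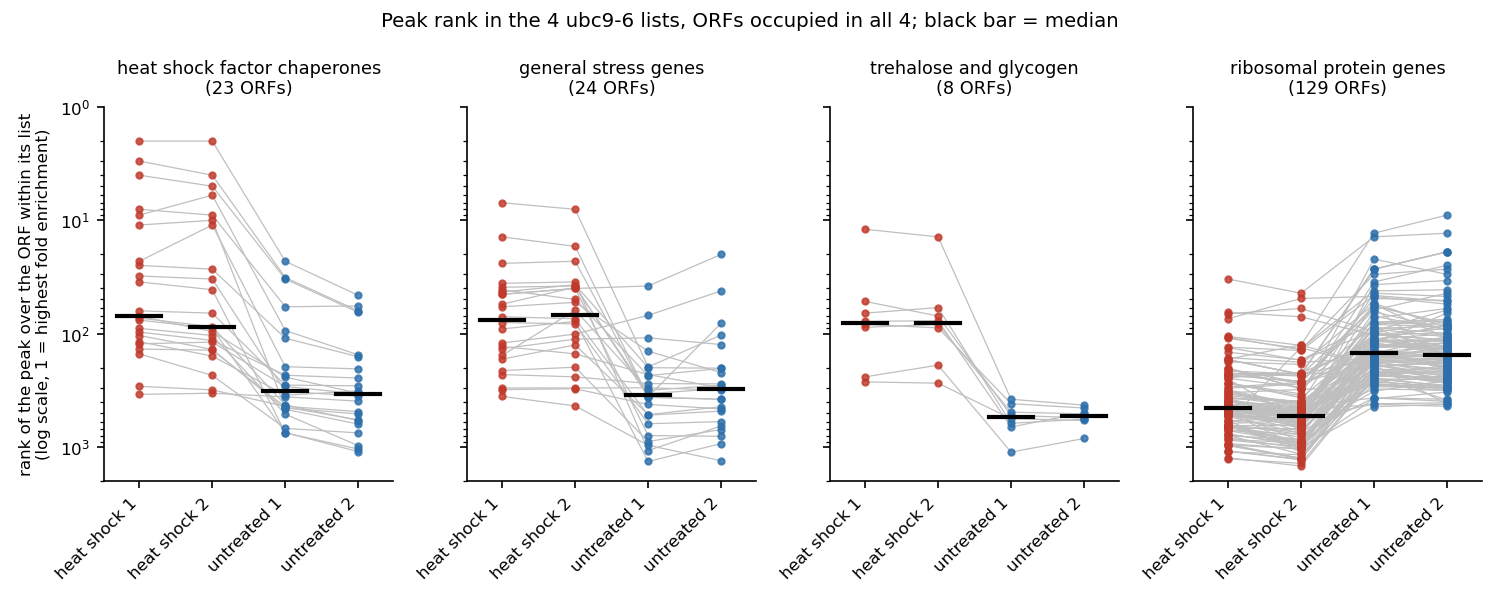
Peak rank (log axis, rank 1 at the top) in each of the 4 *ubc9-6* lists, heat-shocked lists left of untreated lists. Shown are all chaperone (23), general stress (24), trehalose and glycogen (8) and ribosomal protein (129) genes occupied in all 4 lists, without gene labels. Black bars are medians. *HSP42* is at ranks 11 and 10 in heat-shocked lists and at 454 and 512 in untreated lists, while *RPL5* runs the other way.

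General stress genes, most of them targets of Msn2 and Msn4, rose in 19 of 24 tested cases and fell in 1, and 5 of the 34 on the list were gained (8 without untreated replicate 2) and none lost. The median score difference was 2.09, and median ranks were 75.5 and 68 in heat-shocked lists, against 350 and 310.5 in untreated lists. *CTT1* (cytosolic catalase) had ranks 36 and 35 against 1077 and 654, with a score difference of 4.60 ± 0.25 (SE, limma adjusted p = 0.000176). *DDR2*, a small stress protein, reached ranks 7 and 8 against 197 and 103. *GRE3* (aldose reductase) had ranks 24 and 23 against 364 and 379. The 1 fall was *ALD4*, the mitochondrial aldehyde dehydrogenase, with ranks 121 and 101 against 69 and 42, under a peak that also covers *GDH1*.

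*GAD1* (glutamate decarboxylase) had the lowest p value of the rank test among the rises, with ranks 45 and 40 in heat-shocked lists, against 794 and 807 in untreated lists, but this rank was that of a merged peak. Its peak was 5812 and 6025 bp wide in heat-shocked lists and 1830 and 2524 bp wide in untreated lists, and the wider peak ran on over *HOR7*. In untreated lists *HOR7*, another stress gene, stood under a peak of its own at ranks 38 and 20, and it had no call in the rank test. The fold over input of the merged peak was 5.50 and 5.29, against 5.44 and 6.01 for the untreated *HOR7* peak and 1.52 and 1.47 for the untreated *GAD1* peak. The values therefore show that peaks over *GAD1* and *HOR7* joined and not how far *GAD1* itself rose. For 343 of the 355 rises both heat-shocked ranks were ahead of every untreated peak that the heat-shocked peak met. These included all 22 chaperone and all 8 trehalose and glycogen rises, and *GAD1* was the only exception among the stress genes. Of the falls, 311 of 331 met the same rule with treatments exchanged, 110 of the 112 RPGs included. An ORF joined to a rising neighbor also meets this rule. *SUI3*, with untreated ranks 558 and 659, took heat-shocked ranks 9 and 6 from the peak of *HSP82*, whose untreated ranks were 94 and 154. The rule therefore does not count how many rises came from joined peaks. *HSP12*, the abundant membrane-associated stress protein, was less even between replicates, with ranks 39 and 38 against 361 and 81 (score difference 2.19 ± 0.66, adjusted p = 0.0328), and its heat-shocked peak also covered *LPD1*.

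The 5 gained stress genes were *SPI1*, *SOL4*, *GND2*, *TKL2* and *XBP1*. *SPI1*, a cell wall protein of stationary phase, and *SOL4*, a phosphogluconolactonase, stood under peaks that met no untreated peak, at ranks 216 and 269, and 208 and 192. *TKL2*, a transketolase isozyme, was covered in full at ranks 59 and 43 and had no covered base in untreated lists, but it shared that peak with *TEF2*. The repressor *XBP1* was covered in full at ranks 355 and 421, against shares of 0.074 and 0.095. In contrast to *GND2* and *SPI1*, which were gained in WT as well, *SOL4*, *TKL2* and *XBP1* did not meet the rule in the WT lists.

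**Figure D3:**
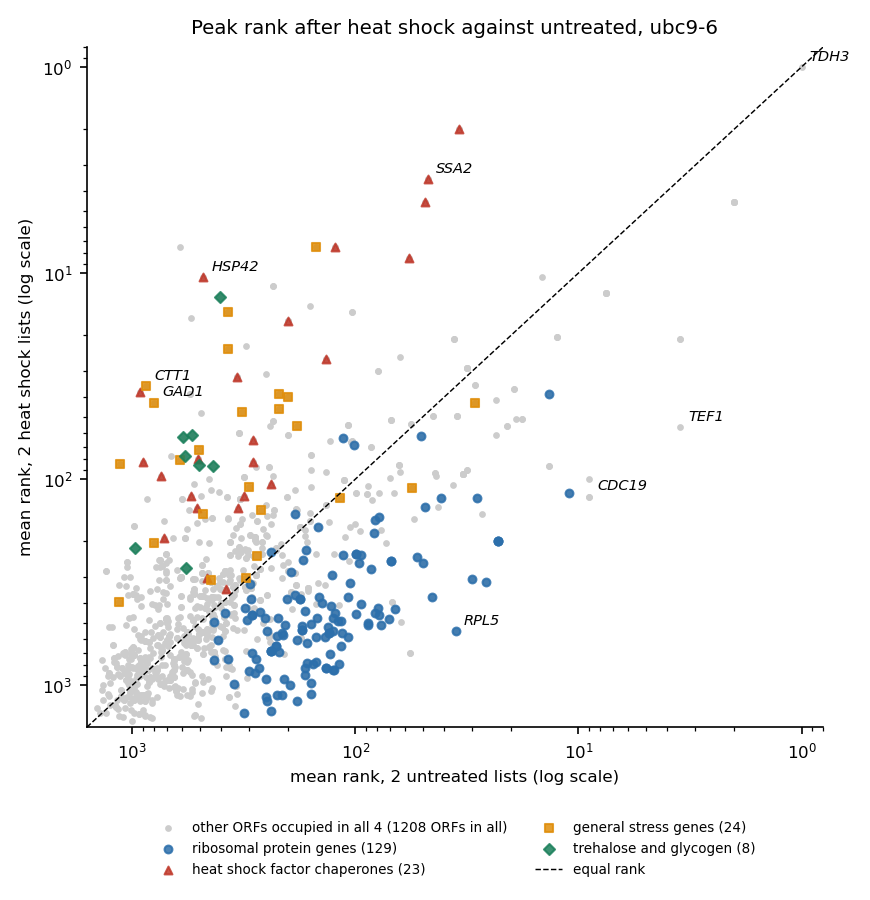
Mean rank in the 2 heat-shocked lists against mean rank in the 2 untreated lists (both axes log, strongest peaks at top right), 1 point per ORF for the 1208 ORFs occupied in all 4 *ubc9-6* lists. Chaperone, stress and storage carbohydrate genes lie mostly above the line of equal rank, ribosomal protein genes mostly below it, and *TDH3* stays at rank 1 in all 4 lists.

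Genes of trehalose and glycogen metabolism, the storage carbohydrates that accumulate under stress, moved as a group. All 8 tested members rose, and 5 of the 18 were gained, with none lost or falling. The median score difference was 2.77, and median ranks were 80.5 and 80 in heat-shocked lists, against 545.5 and 533 in untreated lists. For trehalose, *TSL1* (a regulatory subunit of trehalose synthase) had ranks 12 and 14 against 380 and 428, with a score difference of 5.0 ± 0.23 (SE, limma adjusted p = 0.000176). The catalytic subunit genes *TPS1* and *TPS2* had ranks 88 and 83 against 494 and 511, and 83 and 89 against 416 and 454. Genes of synthesis and of breakdown rose together: the trehalase *NTH1* rose by 1.13 ± 0.13 and the trehalase *NTH2* was gained.

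For glycogen, *UGP1* and *PGM2*, which make the sugar donor UDP-glucose, had ranks 52 and 70 in heat-shocked lists, against 527 and 555 in untreated lists, and 78 and 77 against 668 and 499. *GPH1* (glycogen phosphorylase) had ranks 66 and 59 against 619 and 569. *GSY2* (glycogen synthase), *GLC3* (branching enzyme) and *GDB1* (debranching enzyme) were gained. In WT, *GSY2*, *GLC3* and *GDB1* were occupied in all 4 lists, so it was the untreated *ubc9-6* lists that lacked them. *TPS3* was gained too, at ranks 854 and 847.

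Some isozymes went in opposite directions. The pairs given here were picked after their values were seen, and how many pairs did otherwise was not counted. *HXT5*, a hexose transporter of slow-growing cells, was gained (ranks 464 and 419), while *HXT1*, the low-affinity transporter next to it, was lost (ranks 241 and 423 in untreated lists). The high-affinity transporter genes *HXT7* and *HXT6* rose, with ranks 26 and 19 in heat-shocked lists against 338 and 284 in untreated lists, and 50 and 46 against 533 and 450, while *HXT3* fell, with ranks 426 and 527 against 218 and 270. *HXT6* and *HXT7* are near-identical. *HXK1* (hexokinase 1) reached ranks 14 and 17 against 365 and 381 under a peak shared with *RPN12*, and *GLK1* (glucokinase) rose, while *HXK2*, the hexokinase of glucose-grown cells, fell by 0.95 on the log2 rank scale (limma adjusted p = 0.00577).

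Other pairs lay further down the pathways. *CDC19*, the main pyruvate kinase, fell, with ranks 119 and 124 in heat-shocked lists against 7 and 11 in untreated lists (score difference −3.75 ± 0.34, SE, limma adjusted p = 0.000461), while *PYK2*, the minor isozyme, was gained at ranks 222 and 153 by extension of a neighboring peak. *TAL1*, *TKL1* and *GND1* of the pentose phosphate pathway fell, by 2.64 (as log2 rank, under a peak shared with *ILV5*), 0.44 and 1.12, while their stress isozymes *NQM1*, *TKL2* and *GND2* were gained. *GDH1* (glutamate dehydrogenase) fell by 1.0 and *GDH3* was gained. *TDH1* rose by 2.29 with uneven replicates (ranks 144 and 67 against 786 and 276), whereas *TDH2* had ranks 126 and 142 against 118 and 152 and passed no test. *ALD2* was gained and *ALD3* rose under 1 peak (ranks 91 and 78), and *ALD5* was lost.

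Ribosomal protein genes (RPGs) kept their peaks and lost their place. Of 138 RPG symbols, 136 could have been lost and 2 were (*RPS17B* and *RPL9A*), while in the rank test 112 of 129 fell and 2 rose, *RPL11B* and *RPS8B*. The median score difference was −1.62, and median ranks were 454 and 534 in heat-shocked lists, against 149 and 156 in untreated lists. The 129 RPGs lay under 117 distinct peaks in heat shock replicate 1. Among the 50 strongest peaks of each list, 2 and 3 covered an RPG after heat shock, against 13 and 11 in untreated cells, while 11 and 11 covered an Hsf1 target against 3 and 1. In WT far fewer RPGs were occupied, 15 and 10 in heat-shocked lists and 44 and 19 in untreated lists.

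The extent of the fall varied among RPGs. *RPL5* had ranks 458 and 633 in heat-shocked lists, against 37 and 34 in untreated lists, with folds over input of 1.94 and 1.65 against 5.50 and 5.11 (score difference −3.88 ± 0.23, SE, limma adjusted p = 0.000176). *RPS3* had ranks 277 and 354 against 22 and 30, and *RPP0*, the ribosomal stalk protein, had ranks 274 and 340 against 35 and 25. *RPL28* stayed among the stronger peaks, with ranks 106 and 127 against 13 and 9. *RPS10B* came close to the end of the lists, with ranks 1274 and 1399 against 239 and 239. Both of the RPGs that rose share heat-shocked peaks with other ORFs, *RPS8B* with *SSA4*.

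In contrast to the RPGs, genes that assemble ribosomes lost their peaks. Of 126 ribosome biogenesis factors, 15 could have been lost and 12 were, which is most of those with a peak, beside 15.5% for all ORFs occupied in both untreated lists. The number occupied was 3 and 4 in heat-shocked lists, against 16 and 15 in untreated lists, and 1 was gained. In WT, 1 of the 126 was occupied in each of the 4 lists, so WT lacked most of the peaks that were lost. *NSR1* (nucleolin-like protein) was covered in full at ranks 344 and 352 in untreated lists and had no covered base in heat-shocked lists. All 4 of the box H/ACA and box C/D snoRNA-protein genes named here, *GAR1*, *CBF5*, *NOP56* and *NOP58*, had no covered base after heat shock, and neither did *NOP1* or *NHP2*. Untreated ranks of these genes ran from 211 (*GAR1*) to 1010 (*NOP56*), so most were weak peaks, and a loss means that no peak was called and not that RNAPII was absent. The *GAR1* peak of untreated replicate 1 also covered *RTC3*, which rose to ranks 10 and 13 in heat-shocked lists. The untreated rank of *GAR1* may therefore be that of a neighbor. *NOP10*, also of the list, kept a peak and fell, with ranks 1335 and 1499 in heat-shocked lists, against 570 and 484 in untreated lists.

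The subunits of RNA polymerases followed. *RPC40* and *RPC19*, shared by RNA polymerases I and III, *RPC10*, shared by all 3 polymerases, and *RPC11* made up the 4 lost genes of the RNA polymerase III list, and 4 of its 22 members could have been lost. In untreated replicate 1 the *RPC10* peak also covered *RPL42B*, *CHS7* and *DSE2*. *RPA34* of RNA polymerase I was lost from ranks 6 and 5 of the untreated lists. These untreated peaks met heat-shocked peaks, which left *RPA34* without a covered base. The peaks thus changed in extent and did not vanish, and how much of their strength came from *RPA34* was not tested. Of the RNA polymerase II list, 5 of 11 that could be lost were lost: *RPB5*, *RPB10*, *RPO26*, *RPB2* and *SPT15*, the TATA-binding protein. The first 3 of these are shared with the other polymerases. Not all subunits moved this way, since *RPB4* rose, with ranks 194 and 191 in heat-shocked lists against 634 and 682 in untreated lists, and *RPA14* rose, with ranks 64 and 56 against 312 and 353. Both took ranks of shared peaks. The *RPA14* peak also covered *CPR1* in all 4 lists, and the heat-shocked *RPB4* peaks also covered *IRC9*, *TIM17* and *ROQ1*. GATGAG stood in the windows of 91.3% of the ribosome biogenesis list (115 of 126), a known property of these genes, and in 15 of the 17 lost members of the biogenesis, polymerase I and polymerase III lists.

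Genes of translation itself were lost in large shares of those with peaks in untreated *ubc9-6*. WT had few such peaks: in its untreated lists 5 and 6 of 26 initiation factors and 2 and 4 of 19 aminoacyl-tRNA synthetases were occupied. Of the initiation factors, 10 of the 16 that could be lost were lost, with 6 and 5 of 26 occupied in heat-shocked lists, against 19 and 17 in untreated lists. They include *GCD11* (eIF2 gamma) and *NIP1* (eIF3c), which had no covered base after heat shock, *PAB1* (poly(A)-binding protein), with shares of 0.07 and 0.128, and *CDC33* (the cap-binding protein eIF4E), with 0.495 and 0. All 4 were covered in full in both untreated lists. *TIF1* (eIF4A) was also lost. *TIF1* and *TIF2* encode the same protein and are near-identical. Of the aminoacyl-tRNA synthetases, 8 of the 9 that could be lost were lost, and 1 of 19 was occupied in each heat-shocked list, against 14 and 9 in untreated lists. *KRS1*, *SES1*, *FRS1*, *WRS1* and *MES1* had no covered base after heat shock. The *SES1* peak of untreated replicate 1 also covered *RPS11A*. Without untreated replicate 2, in which fewer synthetases were occupied, 13 were lost.

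Elongation factors fell in rank while mostly remaining covered. *TEF1* (eEF1A) had ranks 51 and 61 in heat-shocked lists, against 3 and 4 in untreated lists (score difference −3.97 ± 0.36, SE, limma adjusted p = 0.000474). *EFT2* (eEF2), *TEF4* and *STM1* fell by 1.72, 1.22 and 1.67 on the log2 rank scale. *EFB1* rose, under the peak of *SSA1*. The release factor genes *SUP45* and *SUP35* were lost, and *SUP45* stood under a peak of untreated cells (ranks 532 and 620) that met no heat-shocked peak.

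Chaperones that work on newly made proteins went opposite to the Hsf1 targets. Among the ribosome-associated chaperones, 4 of the 6 that could be lost were lost: the Hsp70 genes *SSB1* and *SSB2*, their partner *ZUO1*, and the methionine aminopeptidase *MAP1*. *SSB1* had ranks 136 and 171 in untreated lists and a share of 0.085 and 0 after heat shock. *SSB1* and *SSB2* are near-identical copies. Of the 8 subunits of the CCT chaperonin, which folds actin and tubulin, 6 could be lost and 5 were (*CCT4*, *CCT5*, *CCT6*, *CCT7* and *CCT8*). This group was chosen after its values were seen.

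**Figure D4:**
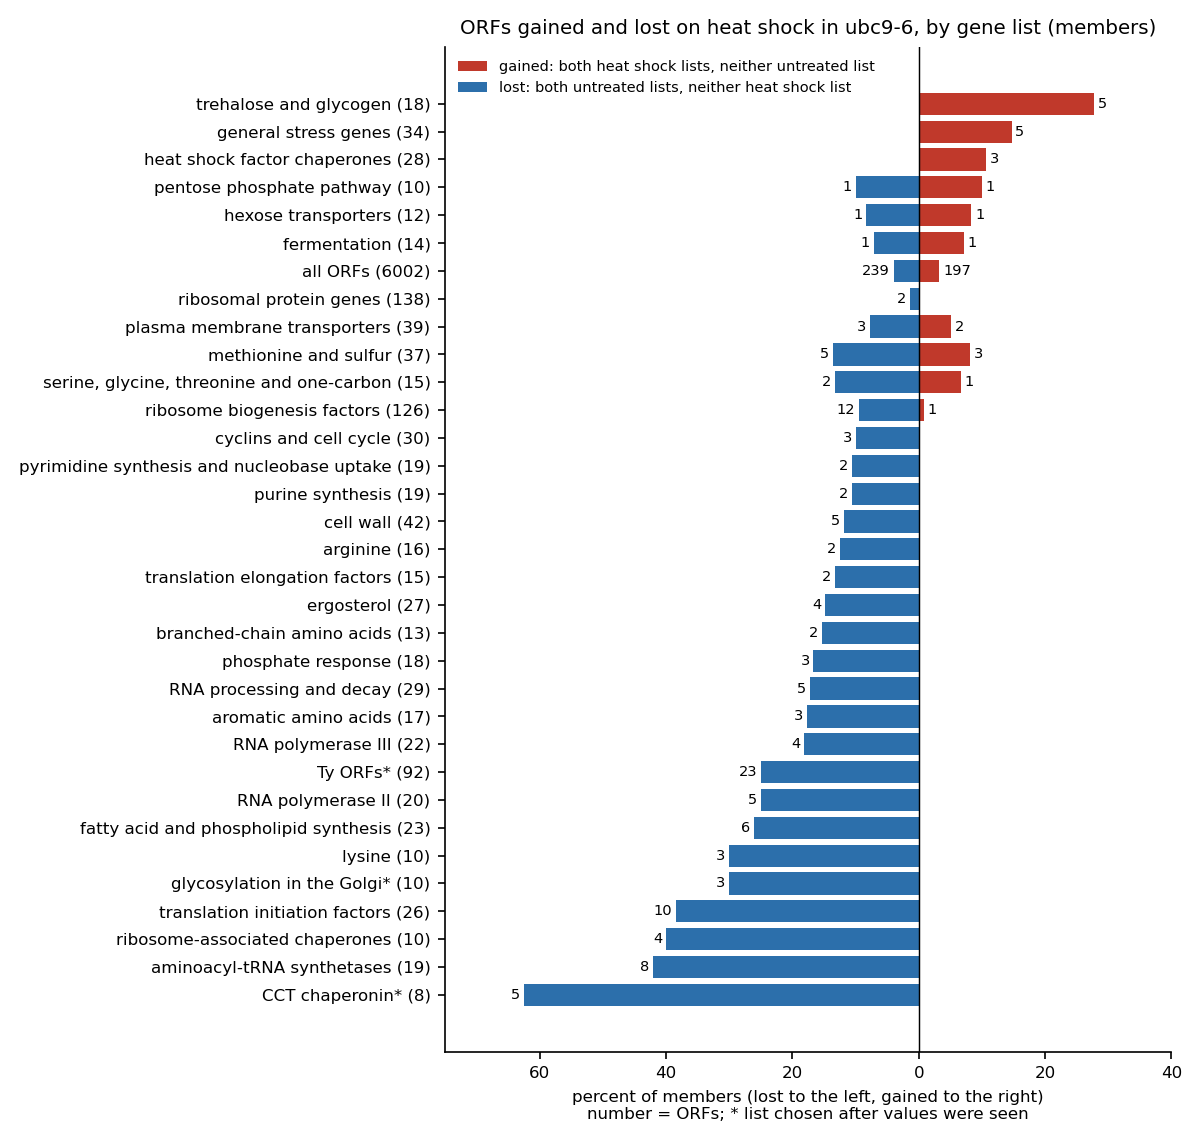
Percent of the members of each gene list that were gained (to the right) or lost (to the left) on heat shock in *ubc9-6*, with the number of ORFs at each bar and the list size in parentheses, for lists with more than 1 such ORF and for all ORFs. Trehalose and glycogen, general stress and chaperone genes have gains only, and initiation factors (10 of 26) and aminoacyl-tRNA synthetases (8 of 19) have losses only. Lists with an asterisk were chosen after their values were seen.

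Among membrane and cell wall genes, falls outnumbered rises. In ergosterol synthesis, 9 of 15 tested genes fell and 1 (*ERG20*) rose, and 4 of the 19 that could be lost were lost, among them *ERG3* and *MVD1* with no covered base after heat shock. In fatty acid and phospholipid synthesis 6 of 16 were lost, *OLE1* (the desaturase, ranks 434 and 332 in untreated lists), *ELO2* and *ELO3* included, and *ACC1*, *FAS1*, *FAS2* and *ITR1* fell, of 10 tested. The 1 rise in that list was *OPI1*, which encodes the repressor of phospholipid synthesis genes, with ranks 154 and 184 in heat-shocked lists, against 987 and 973 in untreated lists (score difference 2.58 ± 0.15, SE, limma adjusted p = 0.000176). It shared its peak with *AIM17* in all 4 lists. In the cell wall list, 11 of 29 tested genes fell, 2 rose (*PIR1* and *PIR3*, under 1 peak) and 5 of 34 were lost, near the background of 15.5%. With peak sets of equal covered length the cell wall falls numbered 7. The glucanase *EXG1* had ranks 128 and 168 against 31 and 23.

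In most lists of amino acid and nucleotide synthesis more genes were lost than gained. The exception was the glutamate, glutamine and asparagine list, with 1 gained and none lost. In the purine and the pyrimidine list 2 of 5 that could be lost were lost, and none was gained. *LYS12*, *LYS20* and *LYS21* of lysine synthesis were lost, of 4 that could be. For the branched-chain list 5 of 7 tested genes fell, but *LEU1* shares its peak with *PMA1*, *ERG4* and *SCL1* (ranks 93 and 97 in heat-shocked lists, against 26 and 40 in untreated lists). All 4 tested arginine genes and 3 of 7 tested methionine and sulfur genes fell. In the methionine and sulfur list the median score difference was −0.03, and 5 of 13 were lost, *SAM1* and *MET17* among them. Of the 24 in that list that could be gained, 3 were (*MET8*, *MET28* and *MUP3*), beside 4.76% for all ORFs occupied in neither untreated list. *HIS1* rose, with ranks 94 and 80 against 265 and 295, under heat-shocked peaks that also covered *PIC2*. In the cell cycle list 3 of the 16 that could be lost were lost, near the background, namely the cyclin genes *CLN1* and *CLN2* and the ribonucleotide reductase gene *RNR1*, and 2 of 11 tested rose and 2 fell.

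Among the lists of protein degradation, the proteasome moved least. Of 33 tested proteasome genes, 7 rose and 2 fell, with a median score difference of 0.07 and no gain or loss. *RPN4*, the transcription factor for proteasome genes, was among the rises, with ranks 58 and 53 in heat-shocked lists, against 261 and 221 in untreated lists. Its heat-shocked peaks also covered *GPD1*. Vacuolar proteolysis moved up: 7 of 8 tested genes of the autophagy and vacuolar protease list rose and none fell, with a median score difference of 1.27. *PAI3*, an inhibitor of the vacuolar protease A, had ranks 139 and 110 against 675 and 529, under a peak shared with *DDR48*. Ubiquitin genes rose in 4 of 5 tested cases, *UBI4* (polyubiquitin) with ranks 27 and 24 against 67 and 59.

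Genes of the mitochondria and of the secretory pathway were mixed. In the citric acid cycle 9 of 18 tested genes rose and 1 fell, with a median score difference of 0.70. In the respiratory chain and ATP synthase 12 of 37 rose and 3 (*ATP4*, *CYC1* and *CYT1*) fell, with a median of 0.32. That share of rises is near the background of 29.4%, and it fell to 6 and 4 genes when heat shock replicate 1 or 2 was left out. Of the endoplasmic reticulum chaperones 4 of 6 tested rose, led by *KAR2* (the Hsp70 of that compartment), with ranks 16 and 15 in heat-shocked lists, against 84 and 124 in untreated lists. Antioxidant genes split, with 7 of 13 rising and 3 falling. *SOD1* (superoxide dismutase) had ranks 28 and 34 against 268 and 234, while *TRX1* (thioredoxin) fell under the peak of *PDC1*.

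The SUMO gene *SMT3* was occupied in all 4 lists and rose slightly, with ranks 270 and 288 in heat-shocked lists, against 379 and 391 in untreated lists (score difference 0.51 ± 0.14, SE, limma adjusted p = 0.023). It lay under a peak with 4 other ORFs, so the rise is not particular to it. The marker *TRP1* had ranks 410 and 434 against 471 and 464 and passed no test. The other members of the SUMO pathway list had no call.

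Gains and losses were mostly peaks that grew or shrank. Of the 197 gained ORFs, 161 lay under heat-shocked peaks that met an untreated peak and 33 under peaks that met none, and of the 239 lost ORFs, 193 and 38. New peaks were found over *FMP48*, a mitochondrial protein, at ranks 299 and 399, and over *SPI1* and *SOL4*. Peaks of untreated cells that met no heat-shocked peak included those over *HXT1*, *KRS1*, *RPB5*, *ERG3*, *CBF5* and *RPC40*, and *SRO9*, an RNA-binding protein (ranks 554 and 535). Of the gained ORFs 84 had no covered base in untreated lists, and of the lost ORFs 88 had none after heat shock. Those nearest to the threshold differed by only 0.166 of their length among the gained ORFs and by 0.141 among the lost ORFs.

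**Figure D5:**
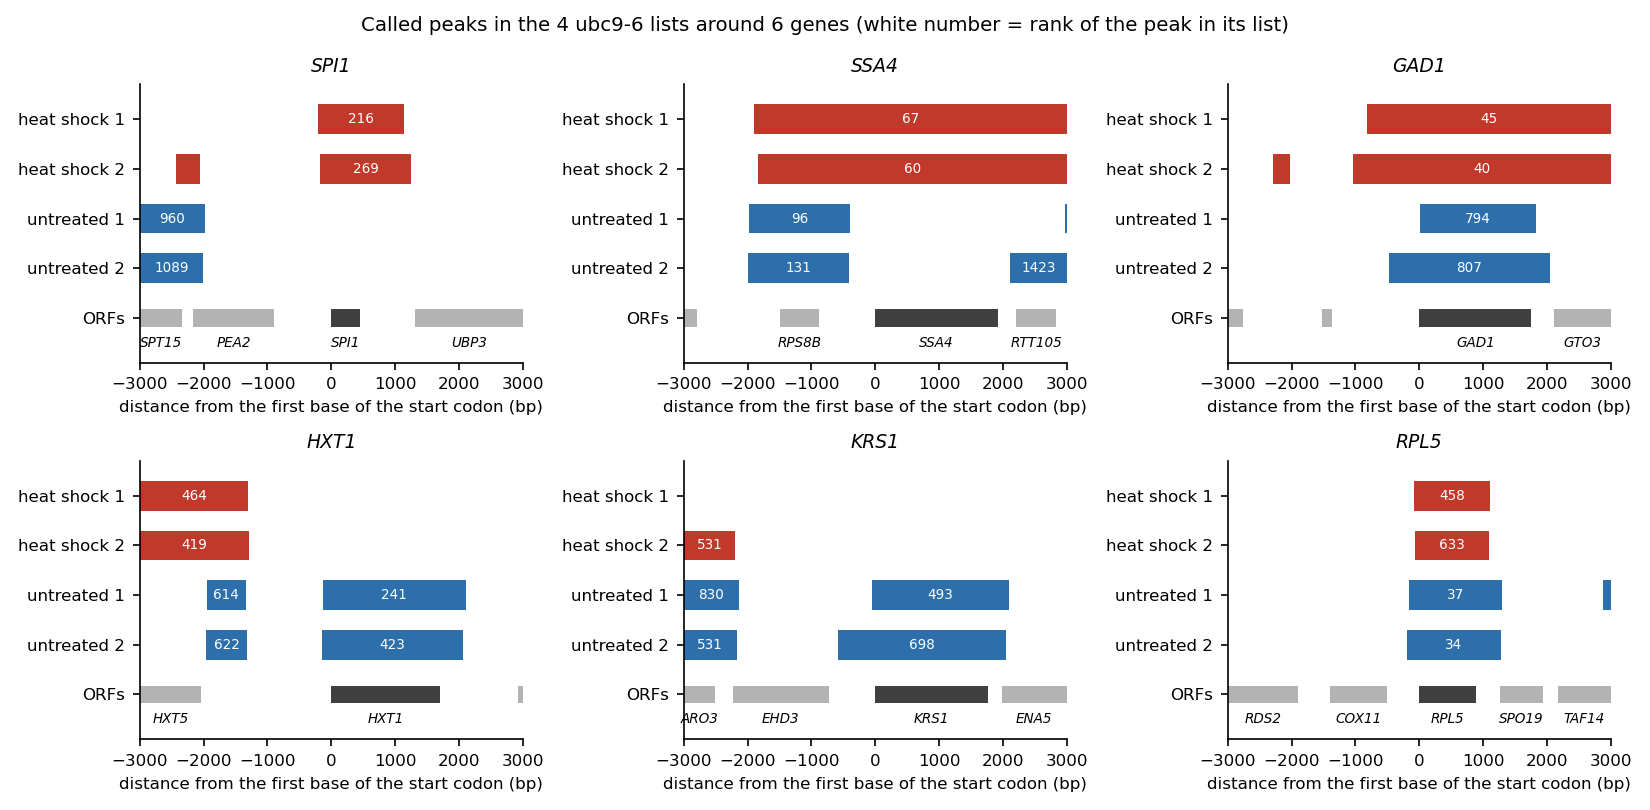
Extent of peaks around 6 genes, in bp from the start codon along the coding strand, in the 2 heat-shocked lists (above) and the 2 untreated lists (below) of *ubc9-6*, with ranks in white. Peaks over *SPI1* are in heat-shocked lists and peaks over *HXT1* and *KRS1* in untreated lists, the *SSA4* peaks of heat-shocked lists run past the right edge of the panel (to 3379 and 3411 bp), and the heat-shocked *GAD1* peaks also run past the right edge.

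The ORFs joined to or dropped from a neighbor's peak were compared with that neighbor in orientation, with no test. Of the gained ORFs, 90 shared their heat-shocked peak in both lists with an ORF occupied in all 4 lists, and 76 of these had 1 such neighbor, directly adjacent. The pair was in tandem in 63.2% of these, convergent in 23.7% and divergent in 13.2%, against 48.4%, 25.8% and 25.9% of all 5986 adjacent ORF pairs. Of the lost ORFs, 83 had 1 such neighbor in untreated lists, in tandem in 69.9%, convergent in 18.1% and divergent in 12.0%. For gained ORFs the rank of such a neighbor rose in 53 of the 90 cases and fell in 14, and for lost ORFs it rose in 31 of 108 and fell in 42. Over all tested ORFs 29.4% rose and 27.4% fell. The 108 are only part of the 239 lost ORFs.

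The rank changes in *ubc9-6* were set beside the same shift in WT. In WT, 1 of 1167 tested ORFs rose (0.0857%, *SUI3*, which shares the heat-shocked peak of *HSP82* in *ubc9-6*) and none fell. None of the 22 chaperone genes tested in WT was called, although their median difference was 1.95. The number of calls therefore does not measure the size of the response in a strain. Of the 300 *ubc9-6* rises that could be tested in WT, 231 had a WT difference of the same sign. The median difference of those 300 ORFs was 1.21 in *ubc9-6* and 0.40 in WT, and of the 143 testable falls it was −1.0 in *ubc9-6* and −0.61 in WT. Chaperone genes had a median of 2.69 in *ubc9-6* and 1.95 in WT, general stress genes 2.09 and 1.18, and trehalose and glycogen genes 2.77 and 0.97. Whether these medians differ between strains was not tested. The medians are over the members that could be tested in each strain, which differ (23 and 22 chaperone genes, 24 and 22 stress genes, 8 and 10 trehalose and glycogen genes). For RPGs the median was −1.62 over 129 genes in *ubc9-6* and −0.46 in WT, where only 9 were occupied in all 4 lists. The difference between strains was tested ORF by ORF as an interaction in limma over the 837 ORFs occupied in all 8 lists. It was more positive in *ubc9-6* for none and more negative for 5 (0.597%), with 156 passing 0.05 before adjustment and a lowest adjusted p of 0.0651 for the positive direction. No chaperone, general stress or trehalose gene passed. These counts hang on single lists: without WT untreated replicate 2 they were 93 positive and 18 negative, without WT untreated replicate 1 they were 17 and 6, and without any one heat-shocked list of either strain no ORF passed.

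Few of the gains and losses met the same rule in the WT lists. Of the 197 ORFs gained in *ubc9-6*, 128 were occupied in both heat-shocked WT lists and 78 in both untreated WT lists, and 13 met the gained rule in WT, where 0.916% of all ORFs were gained. Of the 239 lost in *ubc9-6*, 31 were occupied in both heat-shocked WT lists, 68 in both untreated WT lists and 127 in none of the 4 WT lists, and 22 met the lost rule in WT, where 1.75% of all ORFs were lost. Many ORFs lost in *ubc9-6* thus had no peak to lose in WT.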

How the data were processed

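RNAPII ChIP-seq peak lists of 8 immunoprecipitates were used, of which the 4 from *ubc9-6* carry the comparison, and the 8 input samples entered only as controls of the peak calling. The authors used Trim Galore and Cutadapt for trimming and Bowtie2 (2.3.5) to align the read pairs to sacCer3, and called broad peaks with MACS2 (2.1.1.20160309) at a q-value cut-off of 0.1, separately for each replicate. Each deposited list gives for every peak the fold enrichment over input (a ratio), the −log10 p-value and the −log10 q-value. Peak number and width can grow with sequencing depth. Since the depth of the lists is unknown, no counting interval was given, and reads shared by near-identical genes were placed by the authors' aligner.

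Coordinates are 1-based. The 6002 nuclear protein-coding ORFs came from the RefSeq annotation of R64, introns included. Peak number, covered length and occupied ORFs were tested by exact permutation of 2 lists against 2 (two-sided). Rank scores were fitted in limma (3.58.1, R 4.3.3, with trend) over the 1208 ORFs occupied in all 4 *ubc9-6* lists, with Benjamini-Hochberg adjustment at 0.05. The study's own model of reads over ORFs needs reads and was not fitted. For the strain comparison an interaction was fitted over the 837 ORFs occupied in all 8 lists. Tables were handled in Python (3.11.15), and the calls were tested on simulated data. For each rank call, the strongest peak of the other treatment met by the ORF's peak was also looked up, after the values were seen. Replicate numbers were not used as pairs, because replicates are independent and only 2 numbers are shared.

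The comparison, its members and 46 gene lists were chosen with earlier results of these data known. A further 4 lists (CCT chaperonin, prefoldin, Golgi glycosylation and Ty ORFs) were added once values had been seen. Named genes are the 12 gained and 12 lost ORFs with the largest difference in covered share, the 12 lowest p-values of the rank test in each direction (1 ORF per peak), changed members of the gene lists, ORFs whose peak is found in 1 treatment only, and *UBC9*, *SMT3* and *TRP1*. Not all of these are printed, and neighbors and isozyme pairs were picked with their values in view. The RPG list takes all numbered RPL, RPS and RPP symbols, and so includes *RPP1*, a subunit of RNase P. Alternatives covered the occupied share, stricter and equally sized peak sets, other rank measures, 1 ORF per peak, the replicate block and leaving out each list. The ranks without RPG peaks and the alternatives of the interaction and of the list counts by rank were chosen after seeing the data.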

Additional observations from a re-analysis of the deposited data

Results flagged for a closer look

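The heat shock difference in rank score was lower in *ubc9-6* than in WT for 5 ORFs by the interaction test (limma, adjusted over 837 ORFs). All 5 lie under peaks that ranked higher in untreated *ubc9-6* than in the other 3 groups. *SBP1*, an RNA-binding protein gene, had ranks 338 and 408 in heat-shocked *ubc9-6*, against 44 and 47 in untreated *ubc9-6*, and 458 and 549 in heat-shocked WT, against 605 and 658 in untreated WT (interaction −3.33, adjusted p = 0.00979). Its peak in *ubc9-6* also covers *RPL8A*. For YHL015W-A, an ORF within the peak of *RPS20*, the interaction was −2.33 (adjusted p = 0.00979), and for *AIM7*, within the peak of *RPS13*, it was −2.99 (adjusted p = 0.0163). The neighbors *SSP120* and *SYM1* share 1 peak, with ranks 758 and 643 in heat-shocked *ubc9-6*, against 41 and 73 in untreated *ubc9-6*, and 348 and 429 in heat-shocked WT, against 435 and 675 in untreated WT. Their interaction was −4.13 for *SSP120* and −4.13 for *SYM1* (adjusted p = 0.0148 for both). Of the 5 ORFs, 3 thus take their *ubc9-6* rank from a peak over an RPG, and 9 RPGs were occupied in all 4 WT lists. No other ORF passed, and what part the RPG peaks have in these values was not tested.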

How the results depend on the processing

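No result reversed in any alternative, and no ORF called in one direction was called in the other. Rank rises numbered 286 to 413 and falls 268 to 375 under other shares for occupancy, stricter peak sets, equal covered length and other rank measures, but 218 and 210 with 1 ORF for each peak (766 tested) and 260 and 238 without RPG peaks (985 tested), where fewer ORFs enter. Equal covered length moved the median score of all ORFs to 0.13, and the split was then 388 rises and 268 falls. Gained and lost ORFs numbered 187 to 229 and 208 to 245 in these settings, and the fewest shared calls, with the 1000 peaks of highest −log10 q, were 149 of the 197 and 175 of the 239. Leaving out 1 list gave 304 to 400 rises, 289 to 367 falls, 225 to 278 gained and 285 to 328 lost ORFs. Lost aminoacyl-tRNA synthetases numbered up to 13 with a list left out. Chaperone rises stayed at 20 to 22 in the rank alternatives and stress rises at 14 to 19, and RPG falls were 82 with 1 ORF for each peak. Respiratory rises dropped to 1 without RPG peaks and cell wall falls to 7 at equal covered length.

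The strain interaction was the least stable result, with 0 to 93 positive and 0 to 18 negative ORFs when 1 list was left out, 8 negative with ranks by −log10 q and 10 with log2 fold. With the replicate number as a block, 379 ORFs rose and 356 fell (352 and 331 of them also called without the block), 6 ORFs passed the interaction, and no other result changed its call. Same-numbered lists deviated together only weakly (correlation 0.195 of log2 ranks and 0.00031 of covered shares), so the numbers do not pair the lists. With 2 pairs, an exact sign-flip permutation test of a single value gives p = 0.5 at best.

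Peak lists set the limits. A region without a peak is one below the calling threshold, ranks do not measure total RNAPII, and ORFs under 1 peak, near-identical copies and Ty ORFs have no value of their own. The 37 °C shift also restricts the *ubc9-6* allele.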

Other observations

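Open reading frames of Ty retrotransposons, which were not part of the comparison's gene groups, were lost in 23 cases of the 75 that could be lost and gained in none (92 Ty ORFs in all, chosen after their values were seen). These elements are near-identical copies, so the value of 1 copy is uncertain.

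Of all 6002 ORFs, 4783 belong to none of the 46 lists. These made up 3612 of the 4143 ORFs that could be gained and 169 of the 197 that were gained. They made up 911 of the 1541 ORFs that could be lost and 135 of the 239 that were lost. Both shares were near those of the ORFs that could change. Among those outside the lists were *MTH1*, which was gained, and *BUD20* and *MRS6*, which were lost. Gained ORFs were shorter than lost ones, with a median length of 1029 bp against 1287 bp and 1200 bp for all ORFs.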
